A study of Mus musculus with 16 samples.

Results

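The 10 genes described here are markers of Kupffer cells, the resident macrophages of the liver, namely Clec4f, Timd4, Vsig4, Marco, Cd5l, Cd163, C1qa, C1qb, C1qc and Csf1r. They were found by symbol among the 23420 rows of a table of read counts from mouse liver, and all 10 had a row. The livers came from 4 groups of 4 wild-type C57BL/6J males, 16 mice in all, and their RNA was sequenced in bulk. Every mouse ate a high-fat diet (HFD) with 45% of its energy as fat, either without a drug or with 0.04% fenretinide, a synthetic retinoid (FEN-HFD). One pair of groups was kept on the diets for 7 days and the other for 20 weeks, so that the HFD groups are the controls and no group ate a low-fat diet. The labels give each library as a mouse of its own, and no mouse number was used in more than 1 group. The 7-day and 20-week mice were separate animals, so that duration of feeding, age and cohort cannot be told apart.

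Kupffer cells sit in the liver sinusoids, where they take up bacteria, dying cells and old red cells from the blood. They depend on signalling through the CSF1 receptor, and in mice the long-lived cells that date from the embryo carry CLEC4F and TIM4, while macrophages that enter later from blood monocytes gain CLEC4F before TIM4. In fatty livers, blood monocytes can add further macrophages, among them lipid-associated cells that express Gpnmb. In whole liver, fewer Kupffer cells and less of these RNAs in each cell cannot be told apart.

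The members fall into groups by what their proteins do. Marco and Cd163 code for scavenger receptors, which bind bacteria and modified lipoproteins (MARCO) or haemoglobin bound to haptoglobin (CD163), and Cd5l codes for a secreted scavenger receptor protein of macrophages. Clec4f, Timd4 and Vsig4 code for a galactose-binding lectin, a phosphatidylserine receptor for dying cells and a complement C3b receptor. C1qa, C1qb and C1qc code for the chains of C1q, which starts the classical complement pathway, and Csf1r codes for the receptor of the growth factors CSF1 and IL-34. In GRCm38.p6 coordinates, Marco lies on chromosome 1 from 120474538 to 120505024, Clec4f on chromosome 6 from 83644542 to 83656116 and Vsig4 on chromosome X from 96247201 to 96293438, all on the minus strand. C1qb, C1qc and C1qa follow each other on the minus strand of chromosome 4 within 18719 bases, with gaps of 3600 and 2979 bases and no other gene of the annotation overlapping them. Cd163 overlaps 1 annotated gene model and Csf1r overlaps 2, none of which has a row in the count table.

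The 250 bases before the annotated start are shown for the 3 members whose tests passed the threshold below, Marco, Clec4f and Vsig4. RefSeq promoters of GRCm38.p6 were matched for 8 of the 10 genes, all except C1qa and Csf1r. The sequences run 5′ to 3′ on the strand of the gene. Capitals mark GAGGAA, a purine-rich motif of the kind bound by PU.1, the lineage factor of macrophages, and AGGTCA, the half-site bound by retinoid and other nuclear receptors, on either strand (TTCCTC and TGACCT where the match is on the opposite strand).
Marco (chr1:120505025-120505274, minus strand): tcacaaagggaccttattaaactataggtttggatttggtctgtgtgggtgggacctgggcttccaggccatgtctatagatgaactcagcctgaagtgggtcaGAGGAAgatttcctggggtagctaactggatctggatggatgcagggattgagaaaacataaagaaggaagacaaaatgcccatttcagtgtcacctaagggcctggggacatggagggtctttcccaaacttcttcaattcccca
Clec4f (chr6:83656117-83656366, minus strand): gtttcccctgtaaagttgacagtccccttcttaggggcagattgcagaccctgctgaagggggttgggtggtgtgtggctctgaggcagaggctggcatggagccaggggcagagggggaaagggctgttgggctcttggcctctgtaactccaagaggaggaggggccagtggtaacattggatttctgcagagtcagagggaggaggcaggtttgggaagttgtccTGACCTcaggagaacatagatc
Vsig4 (chrX:96293439-96293688, minus strand): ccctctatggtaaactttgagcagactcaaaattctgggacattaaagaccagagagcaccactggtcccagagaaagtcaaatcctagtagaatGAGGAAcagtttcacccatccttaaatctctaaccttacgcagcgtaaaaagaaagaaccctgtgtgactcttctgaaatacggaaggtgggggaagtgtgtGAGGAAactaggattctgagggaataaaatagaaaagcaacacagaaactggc
Marco held 1 GAGGAA, 146 bases before the start, and Vsig4 held 2, at 155 and 53 bases. Clec4f held 1 AGGTCA, on the opposite strand 22 bases before the start. Among 32851 promoters of the same length, 23.3% held GAGGAA and 14.02% held AGGTCA, so that such matches are common, and they are given as letters in a window and not as bound sites.

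Libraries held 19218230 to 32546829 counts, of which 12866 to 44578 fell on the 10 members, and every member passed the filter on low counts in every comparison. Each level below is in CPM, that is, a gene's counts relative to its library's total after TMM scaling over all 16 libraries. The summed level of 10 hepatocyte genes was 70265 to 78008 CPM in 20-week FEN-HFD livers and 87902 to 100627 CPM in 20-week HFD livers. At 7 days it was 77115 to 87526 CPM on FEN-HFD and 84245 to 100522 CPM on HFD. Alb, at a mean of 41949 CPM, was the largest part of this sum. With fenretinide at 20 weeks, 5 of 9 tested hepatocyte genes had a positive log2 fold change and 4 a negative one, with a median of 0.10. A pair of mice stood apart before any test. In FEN-HFD mouse 29 of the 20-week group, Rn45s, a ribosomal RNA gene, took 53.1% of the counts and Lars2 took 4.36%, whereas Rn45s took 1.00% to 1.46% in the other 3 mice of that group and 0.466% to 0.928% in the 12 mice of the other groups. The members of mouse 29 stood at 1.23 to 2.76 times the median of the other 3 mice of its group. In HFD mouse 143 of the 7-day group, whose Rn45s share was 0.644%, the members stood at 0.882 to 3.71 times that median. Genes of most other immune cells were also high in these mice. Those of T and NK cells, neutrophils and B and plasma cells summed to at most 35.2 CPM in any mouse. The summed CPM of 20 macrophage and myeloid genes was 2.33 times that median in mouse 29 and 2.15 times in mouse 143, that of T and NK cell genes 4.23 and 2.58 times, that of neutrophil genes 4.02 and 2.80 times, and that of B and plasma cell genes 8.64 and 1.12 times, while hepatocyte genes stood at 1.09 and 0.842 times. Other sums were also raised in mouse 29. Early complement genes with C1q partners stood at 1.63 times that median there and red blood cell genes at 1.57 times. Genes of apoptotic cell and haemoglobin clearance stood at 1.93 times. Stellate, sinusoidal endothelial and cholangiocyte genes stood at 1.31, 1.19 and 1.01 times. The same sums were 0.853 to 1.15 times in mouse 143. The TMM factor of mouse 29 was 0.490, beside 0.984 to 1.11 in the other libraries. The part of RNA quality or of other cells in the members' levels was not tested, and the members' log2 fold changes and the list medians below are also given without the mouse concerned where that moved them by over 1.5 times.

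**Figure D1:**
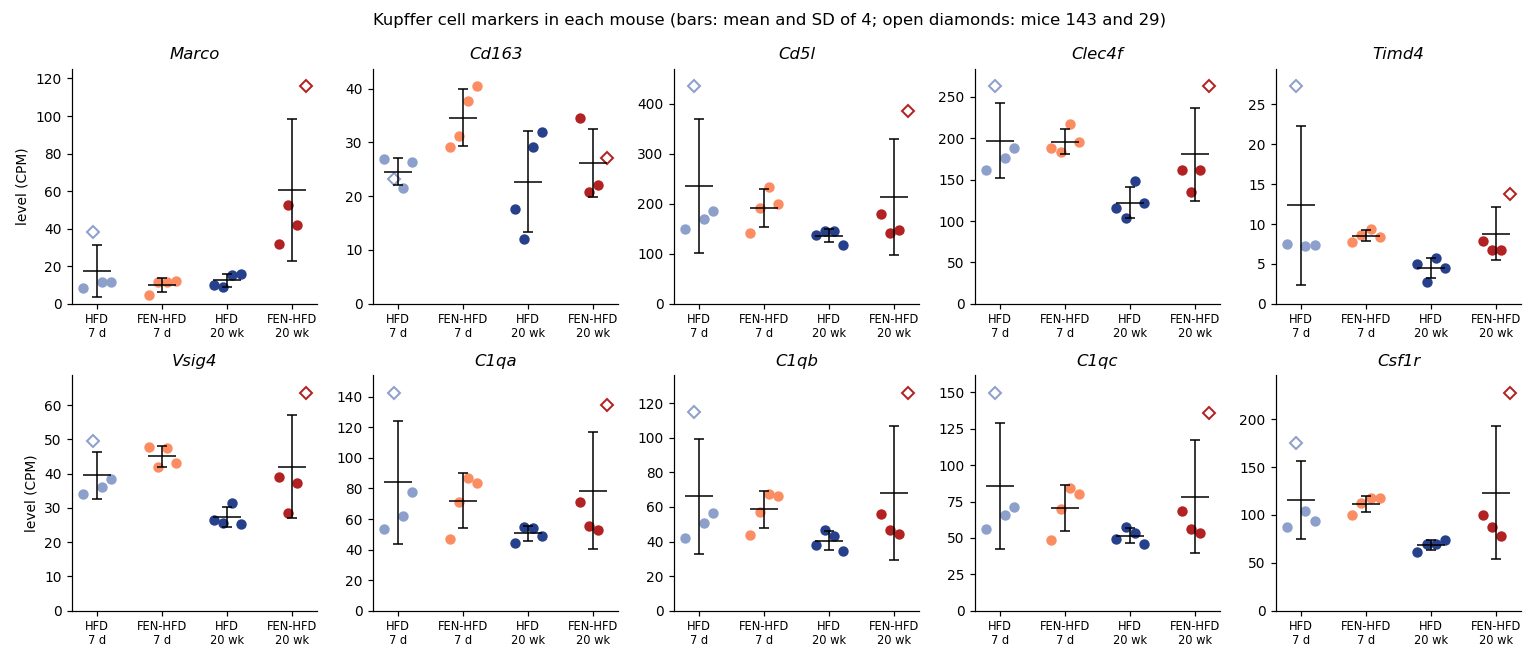
Level (CPM) of each member in each of 16 mice, in the 4 groups; bars are the mean and SD of 4 mice, and open diamonds are mouse 143 (HFD, 7 days) and mouse 29 (FEN-HFD, 20 weeks). Mouse 29 is the highest of its group for every member but Cd163, and the 4 Marco values of the 20-week FEN-HFD group, 31.9 to 116 CPM, lie above all 4 of the 20-week HFD group.

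Per length of merged exons, Cd5l was the most abundant member, with a mean level of 95.2 CPM per kb over the 16 libraries. Clec4f and C1qa followed at 70.4 and 68.5 CPM per kb, then C1qb at 53.7 and C1qc at 37.1 CPM per kb. Vsig4 stood at 25.9, Csf1r at 18.2, Marco at 13.1, Cd163 at 4.94 and Timd4 at 3.93 CPM per kb. Cd5l ranked 1 or 2 in every library and Timd4 ranked 9 or 10. Clec4f and C1qa exchanged places between libraries, with ranks from 1 to 4 and from 2 to 3, and so did C1qc and Vsig4. Marco moved most, from rank 6 to rank 10.

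**Figure D2:**
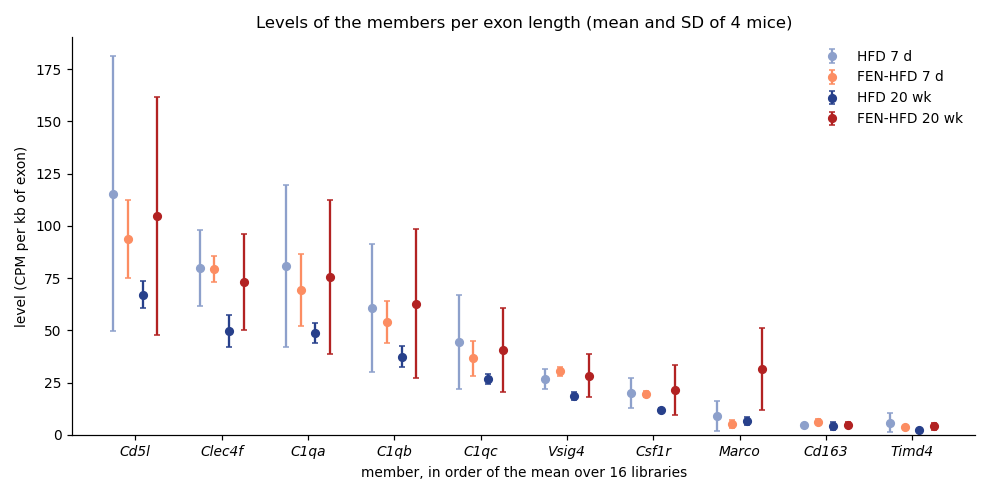
Mean level (CPM per kb of merged exons) and SD of 4 mice for each member in each group, ordered by the mean over 16 libraries. Marco stood at 31.5 CPM per kb in the 20-week FEN-HFD group and at 5.21 to 9.06 CPM per kb in the other 3 groups.

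The first comparison asked what fenretinide in the diet did to these genes after 20 weeks. All 10 members had a higher mean in FEN-HFD than in HFD livers, with a median log2 fold change of 0.64, beside 0.01 over the 13010 genes tested. Marco alone rose by edgeR's quasi-likelihood test with Benjamini-Hochberg adjustment over all genes tested, so that 1 of 10 members was called higher, beside 0.769% of all genes. The FEN-HFD mice lay above the HFD mice without overlap for 3 of 10 members, Marco, Timd4 and Csf1r, beside 6.00% of all genes. At an unadjusted p under 0.05 there were 6 higher members, beside 8.50% of all genes. Without mouse 29, all 10 members still had a positive log2 fold change, but the median fell to 0.30. Marco remained the member called, beside 424 of 13205 genes called in either direction. The same 3 members did not overlap, but the share of all genes without overlap was not counted with that mouse left out.

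The second comparison took HFD livers alone, at 20 weeks against 7 days. All 10 members had a lower mean at 20 weeks, with a median log2 fold change of -0.73, beside -0.01 over 13255 genes. Clec4f and Vsig4 fell by edgeR, so that 2 of 10 members were called lower, beside 2.73% of all genes. The 20-week mice lay below the 7-day mice without overlap for 5 of 10 members, Clec4f, Timd4, Vsig4, Cd5l and Csf1r, beside 8.28% of all genes. At an unadjusted p under 0.05 there were 8 lower members, beside 12.2% of all genes. Over the same time 17 of 20 macrophage and myeloid genes had a negative log2 fold change, with a median of -0.46, or -0.09 without mouse 143, and 5 genes of T and NK cells had a median of -1.60, or -1.10 without it. The T and NK cell list summed to only 5.19 to 13.5 CPM in 7-day and 2.57 to 3.15 CPM in 20-week HFD livers. The part of other cells in the members' change was not tested. Without mouse 143 the median was -0.35 and 9 members had a negative log2 fold change. Clec4f, Vsig4 and Csf1r were then called lower, beside 938 of 13340 genes called in either direction. Mouse 143 stood apart by its levels of these and other immune cell genes, so the added call of Csf1r is not separate support. The same 5 members did not overlap, but the share of all genes without overlap was not counted with that mouse left out. The 20-week HFD mice take part in both comparisons, so the 2 sets of values are not independent of each other.

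After 7 days, no member was called between FEN-HFD and HFD by edgeR, beside 0.0988% of 13157 genes called in either direction, and DESeq2 and limma-voom also called 0 members. At an unadjusted p under 0.05 there was 1 higher member, Cd163, beside 2.63% of all genes, and it was also the only member whose FEN-HFD mice lay above the HFD mice without overlap, beside 1.83% of all genes. Most of the rest changed direction without 1 mouse, and also by limma-voom with all mice, whereas Vsig4 stayed positive and Marco negative. With all mice, 8 members had a negative log2 fold change and the median was -0.19. Without mouse 143, 9 members had a positive one and the median was 0.19. Timd4, Vsig4 and Cd163 then did not overlap, but the share of all genes without overlap was not counted with that mouse left out.

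Between FEN-HFD livers at 20 weeks and at 7 days, Marco was again the member called higher by edgeR, 1 of 10, beside 0.849% of 12949 genes. Marco was also the only member that did not overlap upward, beside 3.85% of all genes. The median log2 fold change was 0.12 with all mice, with 7 members positive, and -0.29 without mouse 29, with 9 members negative and Marco the 1 positive. Without mouse 29, Clec4f and Vsig4 lay lower at 20 weeks without overlap. The share of all genes without overlap was not counted there. The FEN-HFD mice of 20 weeks also take part in the first comparison.

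**Figure D3:**
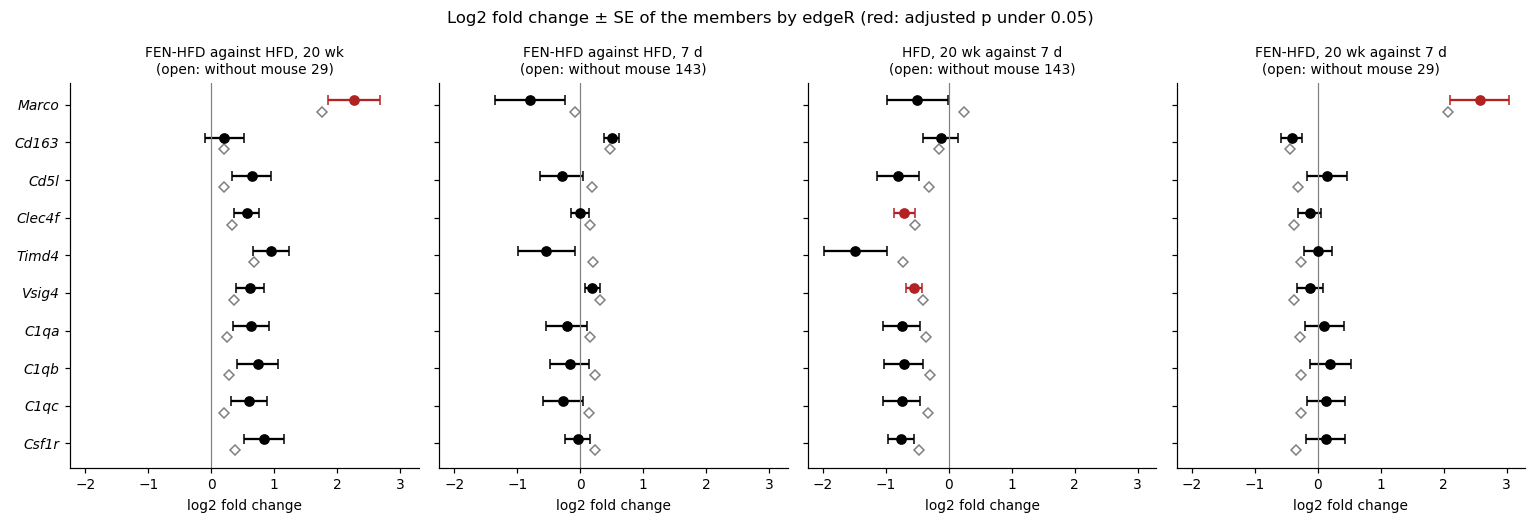
Log2 fold change (horizontal axis) and SE of each member in the 4 pairwise comparisons by edgeR, with values of adjusted p under 0.05 in red; open diamonds are the fit without mouse 29 or mouse 143, as named above each panel. Marco lies at 2.26 and 2.58 in the panels of 20-week FEN-HFD mice, and in the 20-week comparison of the diets every member has a smaller log2 fold change without mouse 29.

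Marco, the scavenger receptor for bacteria and modified lipoproteins, had the largest change among the members in the 20-week comparison. Its levels in HFD livers at 20 weeks were 9.81, 9.21, 15.3 and 15.8 CPM, and in FEN-HFD livers 31.9, 52.5, 42.0 and 116 CPM, the last in mouse 29. Every FEN-HFD mouse exceeded every HFD mouse, and the lowest of them, at 31.9 CPM, was above the highest HFD mouse at 15.8 CPM. Marco was thus 2.26 higher on the log2 scale, with an SE of 0.41 (adjusted p = 0.0357 by edgeR, n = 4 per group). Without mouse 29 it was 1.75 and the call held (adjusted p = 0.0178). The call was lost without any 1 of HFD mice 25, 28 and 33 or FEN-HFD mice 21, 22 and 24, at adjusted p = 0.0512 to 0.113 by edgeR and with log2 fold changes between 2.13 and 2.48, and also with no filter on low counts, at adjusted p = 0.0761.

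At 7 days Marco stood at 8.59, 38.1, 11.7 and 11.5 CPM in HFD livers and at 4.49, 11.6, 11.9 and 12.1 CPM in FEN-HFD livers. The high value belonged to mouse 143 and the low one to mouse 61, and the groups overlapped. Fenretinide against HFD gave a log2 fold change of -0.80 with an SE of 0.55, and of -0.08 without mouse 143, neither of which passed the test (adjusted p = 1.00 in both, by edgeR). Between 20 weeks and 7 days, Marco in FEN-HFD livers was higher by a log2 fold change of 2.58 with an SE of 0.47 (adjusted p = 0.0439 by edgeR), and by 2.06 without mouse 29 (adjusted p = 0.0288). This call was lost without any 1 of mice 61, 62, 65, 66, 22 and 24, at adjusted p = 0.0571 to 0.120, and with no filter, at 0.105. In HFD livers the change with time was -0.50 with all mice and 0.23 without mouse 143, at adjusted p = 0.555 and 0.539 by edgeR.

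Cd163, the receptor for haemoglobin bound to haptoglobin, was not at its highest in either mouse that stood apart. In mouse 143 it stood at 23.3 CPM, beside 26.9, 21.6 and 26.4 CPM in the other 7-day HFD mice. In 7-day FEN-HFD livers it stood at 29.1, 31.2, 37.7 and 40.5 CPM, so that all 4 lay above the HFD mice. The log2 fold change was 0.50 with an SE of 0.12, and 0.47 without mouse 143 (adjusted p = 0.316 and 0.346 by edgeR), and it passed the threshold in none of 15 alternatives, the lowest adjusted p being 0.0512 by DESeq2. At 20 weeks Cd163 was at 17.6, 12.1, 29.1 and 31.8 CPM in HFD livers and at 34.6, 20.7, 22.2 and 27.1 CPM in FEN-HFD livers. These groups overlapped throughout, and the log2 fold change of 0.21 was smaller than its SE of 0.30.

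Cd5l, the secreted scavenger receptor protein, stood at 137, 145, 145 and 117 CPM in HFD livers at 20 weeks and at 179, 141, 148 and 385 CPM in FEN-HFD livers. Mouse 29 held the highest value, and mouse 22 lay among the HFD mice. A log2 fold change of 0.64 with an SE of 0.31 did not pass the test (adjusted p = 0.312 by edgeR) and was 0.20 without mouse 29. At 7 days HFD livers held 150, 435, 170 and 185 CPM and FEN-HFD livers 141, 192, 232 and 199 CPM, with mouse 143 at the top. From 7 days to 20 weeks on HFD, Cd5l did not overlap, and its log2 fold change was -0.80 with all mice and -0.31 without mouse 143 (adjusted p = 0.180 and 0.122 by edgeR).

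Clec4f, the lectin that marks Kupffer cells most narrowly, fell with time on HFD. It stood at 162, 263, 177 and 188 CPM in 7-day HFD livers and at 116, 103, 148 and 122 CPM in 20-week HFD livers. All 4 of the 20-week mice lay below all 4 of the 7-day mice. Time on HFD gave a log2 fold change of -0.71 with an SE of 0.17 (adjusted p = 0.0335 by edgeR), and -0.53 without mouse 143, with the call unchanged (adjusted p = 0.0338). The call was lost without any 1 of 7-day mice 144 and 146 or 20-week mice 25, 28 and 45, at adjusted p = 0.0546 to 0.0997.

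In FEN-HFD livers Clec4f was at 188, 183, 217 and 195 CPM at 7 days and at 162, 136, 162 and 263 CPM at 20 weeks. Mouse 29 held the top value, and the other 3 mice of 20 weeks lay below all 4 of 7 days. The log2 fold change between these times was -0.13 with an SE of 0.18, and -0.37 without mouse 29 (adjusted p = 0.934 and 0.0698 by edgeR). FEN-HFD against HFD gave 0.56 at 20 weeks with an SE of 0.20 and 0.33 without mouse 29, at adjusted p = 0.184 and 0.172, and -0.01 at 7 days, or 0.16 without mouse 143.

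Vsig4, the C3b receptor through which Kupffer cells clear opsonised bacteria, also fell with time on HFD. Its levels in HFD livers were 34.0, 49.5, 36.2 and 38.3 CPM at 7 days and 26.6, 25.6, 31.5 and 25.3 CPM at 20 weeks, without overlap. Its log2 fold change was -0.55 with an SE of 0.13 (adjusted p = 0.0329 by edgeR), and -0.42 without mouse 143 (adjusted p = 0.0362). The call was lost without any 1 of the same 5 mice as for Clec4f, at adjusted p = 0.0523 to 0.0948, and with all 16 libraries in 1 fit, at 0.0770. FEN-HFD livers held 47.7, 41.9, 47.4 and 43.1 CPM at 7 days and 38.9, 28.5, 37.3 and 63.6 CPM at 20 weeks. Between these times Vsig4 changed by -0.12 on the log2 scale with all mice. Without mouse 29 it changed by -0.38 (adjusted p = 0.108 by edgeR), and the 20-week mice then lay below the 7-day mice. Against HFD at 20 weeks the log2 fold change was 0.61 with an SE of 0.22, and 0.36 without mouse 29 (adjusted p = 0.177 and 0.133 by edgeR).

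Timd4, the phosphatidylserine receptor of long-lived Kupffer cells, was the least abundant member per length. HFD livers at 20 weeks held 4.94, 2.76, 5.76 and 4.49 CPM, and FEN-HFD livers 7.90, 6.73, 6.78 and 13.7 CPM. The groups did not overlap, with the lowest FEN-HFD mouse at 6.73 CPM above the highest HFD mouse at 5.76 CPM. Its log2 fold change was 0.95 with an SE of 0.28 and did not pass edgeR's test (adjusted p = 0.121), while DESeq2 and limma-voom called it higher, at adjusted p = 0.0246 and 0.0449. Without mouse 29 it was 0.68 (adjusted p = 0.118 by edgeR). At 7 days HFD livers held 7.56, 27.3, 7.26 and 7.37 CPM and FEN-HFD livers 7.69, 8.65, 9.36 and 8.34 CPM. All mice but number 143 thus lay between 7.26 and 9.36 CPM at 7 days, above every 20-week HFD mouse. From 7 days to 20 weeks on HFD the log2 fold change was -1.49 with all mice and -0.73 without mouse 143 (adjusted p = 0.115 and 0.0743 by edgeR). It was called lower by DESeq2, at adjusted p = 0.00892, and with all 16 libraries in 1 edgeR fit, at 0.0338.

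None of the 3 C1q chains was called by edgeR in any comparison. C1qa, the first of them, stood at 44.2, 54.7, 54.1 and 49.1 CPM in HFD livers at 20 weeks and at 71.4, 55.4, 52.8 and 134 CPM in FEN-HFD livers. Mouse 24 lay within the HFD range and mouse 29 far above the rest. C1qb ranged from 34.5 to 46.8 CPM in these HFD livers and from 44.4 to 126 CPM in the FEN-HFD livers, and C1qc from 45.8 to 57.4 CPM and from 53.2 to 136 CPM. At 7 days C1qa was at 53.6, 143, 61.7 and 77.9 CPM on HFD and at 47.2, 70.9, 86.9 and 83.3 CPM on FEN-HFD. Fenretinide against HFD at 20 weeks gave log2 fold changes of 0.63, 0.74 and 0.60 for C1qa, C1qb and C1qc, with SEs of 0.28, 0.32 and 0.28, and none passed edgeR's test (adjusted p = 0.275, 0.268 and 0.304). Without mouse 29 they were 0.25, 0.28 and 0.21. The change with time on HFD was -0.75, -0.72 and -0.75, and -0.36, -0.30 and -0.33 without mouse 143, and DESeq2 called C1qa lower there (adjusted p = 0.0475). Within a library the chains kept nearly the same ratio, with C1qb at 0.703 to 0.937 of C1qa and C1qc at 0.918 to 1.12 of C1qa in all 16 mice, mice 29 and 143 included.

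Csf1r, on which the survival of Kupffer cells depends, stood at 61.8, 70.2, 69.7 and 74.1 CPM in HFD livers at 20 weeks and at 100, 87.6, 78.4 and 228 CPM in FEN-HFD livers. The groups did not overlap. The log2 fold change was 0.84 with an SE of 0.32, and 0.37 without mouse 29 (adjusted p = 0.206 and 0.0733 by edgeR). At 7 days HFD livers held 87.8, 175, 104 and 94.1 CPM and FEN-HFD livers 99.8, 113, 117 and 118 CPM. Every 7-day mouse of either diet thus lay above every 20-week HFD mouse. Over time on HFD the log2 fold change was -0.76 with an SE of 0.21, short of the threshold with all mice (adjusted p = 0.0617 by edgeR), and -0.48 without mouse 143, where it passed (adjusted p = 0.0193). Mouse 143 held the highest 7-day value, and the SD of the 7-day HFD mice was 40.5 CPM with it and 8.41 CPM without it. The call gained by leaving it out is therefore not separate support. DESeq2 and limma-voom called it with all mice, at adjusted p = 0.00512 and 0.0499.

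Whether the effect of fenretinide differed between 20 weeks and 7 days was tested as an interaction over all 16 libraries. No member passed by edgeR, beside 0.0299% of 13387 genes, or 4 genes, called in either direction, and 4 members were higher at an unadjusted p under 0.05, beside 3.95% of all genes. Marco had the largest difference, 3.06 on the log2 scale with an SE of 0.73 (adjusted p = 0.180 by edgeR), and was the 1 member DESeq2 called, at adjusted p = 0.0110. The difference was positive for 9 members, with a median of 0.88, and negative for Cd163, at -0.29. The median was 0.45 without mouse 29 and 0.47 without mouse 143. Without both mouse 29 and mouse 143, an alternative chosen after the data were seen, the median was 0.07. Marco then stood at 1.83 (adjusted p = 0.160 by edgeR) and Timd4 at 0.47, and the other 7 positive members between 0.01 and 0.16.

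Members were also set against 20 other macrophage and myeloid genes of the same libraries, whose summed level was 592 to 784 CPM in 20-week HFD livers and 640 to 1609 CPM in 20-week FEN-HFD livers. Marco made up 4.21% to 8.20% of the summed CPM of those genes in 20-week FEN-HFD livers. The range was 1.18% to 2.68% in 20-week HFD livers, 1.24% to 2.36% in 7-day HFD livers and 0.544% to 1.48% in 7-day FEN-HFD livers, so that no mouse of another group reached the FEN-HFD group of 20 weeks. Mouse 29 lay inside the range of its own group on this scale. C1qa, in contrast, lay at 7.64% to 9.41% in 20-week FEN-HFD livers and 6.44% to 8.39% in 20-week HFD livers, and Clec4f at 16.4% to 23.4% and 13.2% to 22.9%, with overlap for both. Vsig4 stayed at 0.189 to 0.254 of the Clec4f level in all 16 mice, whereas Marco ranged from 0.0239 to 0.441 of it.

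**Figure D4:**
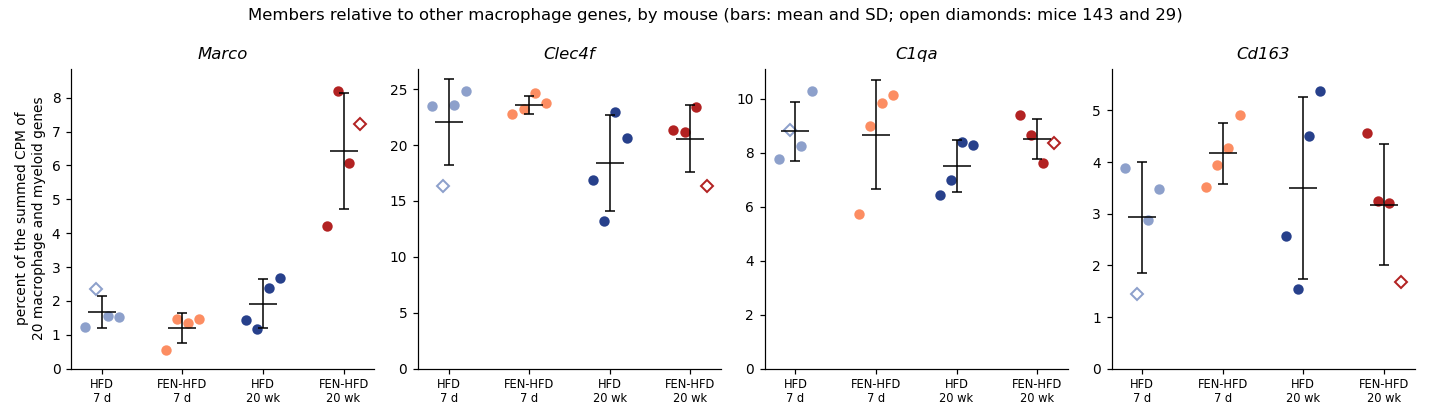
Marco, Clec4f, C1qa and Cd163 as a percent of the summed CPM of 20 macrophage and myeloid genes in each mouse, with the mean and SD of each group; open diamonds are mice 143 and 29. Marco lies at 4.21% to 8.20% in 20-week FEN-HFD mice and at no more than 2.68% in the others, while the groups overlap for Clec4f, C1qa and Cd163.

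The other genes of these cells and of the pathways the members belong to are given by lists. Of 19 other Kupffer cell genes tested at 20 weeks, 1 rose and 2 fell with fenretinide by edgeR, beside 0.769% and 1.09% of all genes. Their median log2 fold change was 0.49, or 0.18 without mouse 29. Fcna, which codes for ficolin A, a lectin of the complement system made by liver macrophages, rose from 45.9 ± 15.5 to 108 ± 12.8 CPM (SD, n = 4), by 1.24 on the log2 scale with an SE of 0.23 (adjusted p = 0.0305 by edgeR). Id3 and Id1, which code for inhibitors of basic helix-loop-helix factors and of which Id3 is needed for Kupffer cell development, were lower by -0.80 and -0.88 (adjusted p = 0.0263 and 0.0184). All 3 calls held without mouse 29. Bulk liver RNA does not show in which cells these 3 genes changed, and this was not tested. None of 20 macrophage and myeloid genes was called, all 20 had a positive log2 fold change with a median of 0.55, and the median without mouse 29 was 0.08. After 7 days none of the genes of either list was called, and the median of the macrophage and myeloid genes was -0.13 with all mice and 0.23 without mouse 143.

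Genes of other macrophage states were counted in the same way. Of 13 genes of recruited monocytes and macrophages, none was called at 20 weeks with fenretinide and the median was -0.37. Without mouse 29 the median was -1.28 and Cx3cr1 and F13a1 were called lower. None of 10 genes of lipid-associated macrophages was called, with medians of -0.49 and -0.78 with and without mouse 29. With time on HFD, 3 of the 10 lipid-associated genes rose, Gpnmb, Mmp12 and Ctsd, beside 4.78% of all genes called higher. The medians of the lists were 0.93 for lipid-associated and 0.65 for recruited macrophages, or 1.20 and 1.09 without mouse 143. Gpnmb, which codes for a membrane glycoprotein of lipid-laden macrophages, was at 0.236 ± 0.127 CPM at 7 days and 5.70 ± 5.88 CPM at 20 weeks (SD, n = 4), a log2 fold change of 4.57 with an SE of 0.99 (adjusted p = 0.0317 by edgeR). Mmp12, macrophage elastase, rose by 3.98 (adjusted p = 0.0476) and Ctsd, a lysosomal protease, by 0.47 (adjusted p = 0.0362). These 3 calls were lost without mouse 143, at adjusted p = 0.0845, 0.0993 and 0.0588. Cx3cr1, the fractalkine receptor, rose by 1.72 with time on HFD (adjusted p = 0.0301) and did so without mouse 143 as well.

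**Figure D5:**
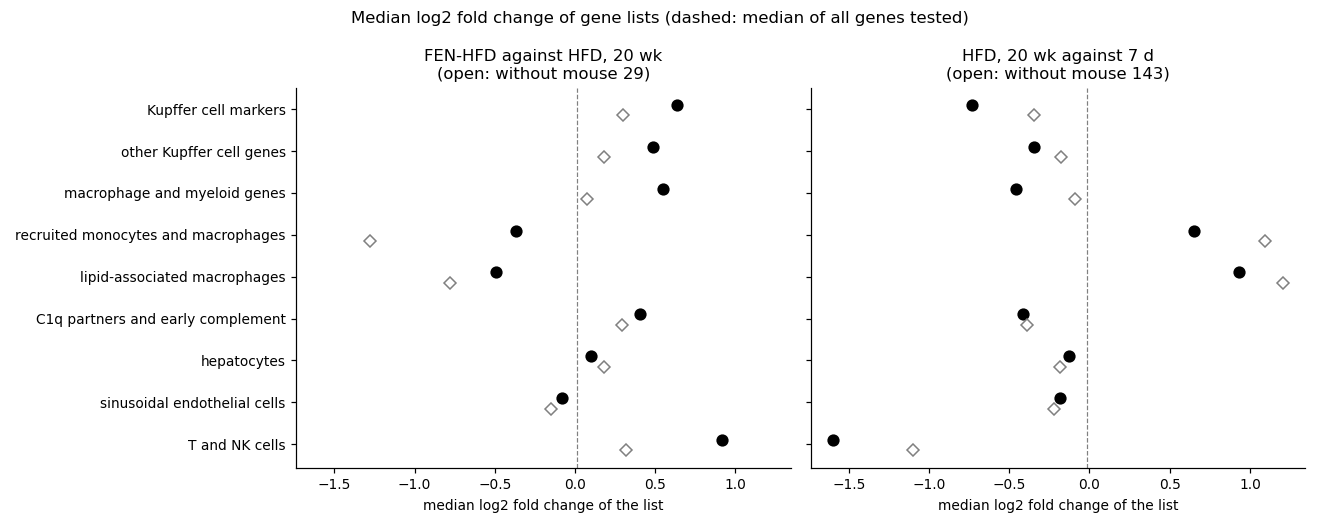
Median log2 fold change (horizontal axis) of 9 gene lists in 20-week FEN-HFD against HFD livers and in HFD livers at 20 weeks against 7 days; the dashed line is the median of all genes tested and open diamonds are the fits without mouse 29 or mouse 143. The Kupffer cell markers lie at 0.64 and -0.73, and the lipid-associated macrophage genes at -0.49 and 0.93.

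With time on HFD, 2 of the 19 other Kupffer cell genes fell and none rose, beside 2.73% of all genes called lower. Their median was -0.35, or -0.18 without mouse 143. Cfp, which codes for properdin, the stabiliser of the alternative complement pathway, fell by 0.66 on the log2 scale (adjusted p = 0.0388 by edgeR), and Pilra, an inhibitory receptor of myeloid cells, fell by 0.79 (adjusted p = 0.0395), with both calls kept without mouse 143. Mrc1, the mannose receptor, was the 1 of 20 macrophage and myeloid genes called lower, at -0.36 (adjusted p = 0.0244). Of 10 C1q partners and early complement genes, 5 fell with time on HFD and none rose, with a median of -0.41. They included C2, at -1.15 (adjusted p = 0.000745 by edgeR), the C1 protease gene C1ra at -0.71 and Serping1, which codes for the C1 inhibitor, at -0.62, all of them made chiefly by hepatocytes. Without mouse 143 the calls of C2 and C1ra remained and that of Serping1 did not (adjusted p = 0.0566). With fenretinide at 20 weeks, none of these 10 genes was called, 5 had a positive log2 fold change with an unadjusted p below 0.05, and the median was 0.41. Without mouse 29, C2 was called higher there.

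The ligands of the CSF1 receptor showed no called change. Among 6 tested genes of macrophage growth factors and their receptor partners, none passed by edgeR with fenretinide at 20 weeks or with time on HFD, and at an unadjusted p under 0.05 there was 1 in the former, Il34, at -0.90 with an SE of 0.28 (adjusted p = 0.125), and none in the latter. Csf1 was at 0.20 with an SE of 0.21 with fenretinide and at -0.21 with an SE of 0.13 with time. Of 12 macrophage transcription factors, Id3 was the 1 called at 20 weeks and none was called with time on HFD. Of the 18 genes of apoptotic cell and haemoglobin clearance, Ftl1, the ferritin light chain, fell with fenretinide at 20 weeks, by 0.77 on the log2 scale (adjusted p = 0.0191 by edgeR). Without mouse 29, Gas6 was also called lower there, whereas with all mice it stood at -0.99 (adjusted p = 0.134). With time on HFD, Ftl1 rose by 0.72 and Gas6, which bridges dying cells to the receptors AXL and MERTK, by 1.34, at adjusted p = 0.0100 and 0.0106, while Scarb1, a lipoprotein receptor, fell by 0.61 and Mrc1 by 0.36.

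The genes whose pattern over the 16 libraries was most like that of the members were found among 12000 genes averaging 1 CPM or more, by the correlation of log2 CPM with the mean of the members' standardised log2 CPM. Ptgs1, which codes for cyclooxygenase 1, had the highest Pearson r, at 0.975, followed by Pld4, a phospholipase D family member of myeloid cells, at 0.969 and Cfp at 0.957. Gbgt1, Batf3, Trpm2, Fpr1, Was, P2ry13 and Fgd2 came next, with r from 0.942 to 0.948. Of the members themselves, r was 0.892 to 0.963 for 8, 0.557 for Marco and 0.424 for Cd163. Each member is part of that mean, which raises its r, so these values cannot be set against those of the other genes. These values describe 16 libraries that share 4 groups and include mice 29 and 143. Without mouse 29, Ptgs1 and Pld4 remained first and second at 0.975 and 0.956, and without mouse 143 Ptgs1 was second at 0.969.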

How the data were processed

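Bulk liver RNA of 16 mice was sequenced. The authors deposited unnormalised read counts, 1 row for each gene symbol, made from reads filtered with FASTQ Toolkit 2.0.0 and aligned to mm10 with STAR 2.0, and their own comparisons used DESeq2 1.6. How reads were counted (program, annotation, strand) is not given in the sources used here. The labels name a stranded total RNA kit with Ribo-Zero, the paper's methods a TruSeq RNA kit, and reads of overlapping genes can therefore be shared. All columns of the table were mapped to mice by the labels, and 0 were left unused. Groups are those of the labels. The members and gene lists were chosen with earlier results of these data known.

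The main tests used edgeR 4.0.16 in R 4.3.3: filterByExpr, TMM, glmQLFit and glmQLFTest with robust=TRUE, on the 8 libraries of each pair of groups, and on all 16 for the difference between the fenretinide effects. Adjusted p-values are Benjamini-Hochberg values over all genes tested, with a threshold of 0.05. The SE of a log2 fold change was taken from the quasi-likelihood F statistic. P-values measure the spread between mice within groups, and the comparisons of 20 weeks with 7 days span cohorts. The script was tested on simulated data. Other settings tried were limma-voom with sample weights (limma 3.58.1), DESeq2 1.42.0, RLE factors, no filter beyond 1 count, at least 10 counts in every library, removal of Rn45s and Lars2, 1 fit of all 16 libraries, and each mouse left out in turn. The joint removal of mice 29 and 143, and list medians without either, were added after the data were seen. Genes were named as the 10 members, up to 4 genes with the smallest p per list and comparison among those with an adjusted p under 0.05, and the 10 genes most like the members (log2 CPM with a prior count of 2). Il34, Csf1 and the genes called only without mouse 29 or mouse 143 were named after their values were seen. Of 199 listed symbols in 18 lists, 195 were found, 6 of them by a synonym. Exon lengths and positions are from GENCODE M21 and RefSeq for GRCm38.p6, which may differ from the annotation used for counting. Results of some listed genes are not reported here.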

Additional observations from a re-analysis of the deposited data

Results flagged for a closer look

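In groups of 4, a mouse was singled out where its gap to the nearest of the other 3 exceeded Dixon's 95% critical share of the group's range. Chance alone does this in about 1 in 20 independent groups. Of 40 groups of the 10 members, 9 met it, but most members vary together in the same mice. The 40 groups are thus not independent, and their count cannot be set against 1 in 20. HFD mouse 143 at 7 days was high for Timd4 (27.3 CPM, with the next mouse at 7.56), Marco (38.1, next 11.7), Cd5l (435, next 185) and C1qc (149.7, next 71.5). FEN-HFD mouse 29 at 20 weeks was high for Timd4 (13.7 CPM, next 7.90), Cd5l (385, next 179), C1qb (126.0, next 55.9) and Csf1r (228, next 100.4). FEN-HFD mouse 61 at 7 days was low for Marco (4.49 CPM, next 11.6). The values that moved with mice 29 and 143 are given in the report, and their part was not tested.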

How the results depend on the processing

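With 4 mice per group, each of the members' calls was lost without any 1 of several mice, but held without mouse 29 or mouse 143. No paired analysis was possible because the groups share no mouse number. Of 830 alternative log2 fold changes of the members, 756 kept their direction and their side of the threshold. Another 25 lost the call, 9 gained it and 40 changed sign, none of these called. All 40 group levels moved by less than the group's own SD when scaled by the total count without Rn45s and Lars2, in place of TMM. That SD is wide for most members in the groups of mice 29 and 143, so the check is weak there. The cause of a change was not tested.

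Counts of called genes moved most. For fenretinide at 20 weeks, edgeR called 242 genes, DESeq2 1011, limma-voom 1128, 1 fit of all 16 libraries 661, and 36 to 424 without 1 mouse. Of the members, 1 was called higher, 2 by DESeq2 and by limma-voom, 0 with no filter and 0 to 1 without 1 mouse. For fenretinide at 7 days, 13 genes were called, 95 by DESeq2, 29 by limma-voom, 20 with no filter and 7 to 18 without 1 mouse. For time on HFD, 996 genes were called, 1764 by DESeq2 and 468 to 938 without 1 mouse, and of the members 2 were called lower, 5 by DESeq2 and 0 to 3 without 1 mouse. For time on FEN-HFD, 153 genes were called, 404 by DESeq2, 892 by limma-voom and 57 to 486 without 1 mouse, and of the members 1 was called higher, 0 with no filter and 0 to 1 without 1 mouse. For the difference between the fenretinide effects, 4 genes were called, 115 by DESeq2, 90 by limma-voom, 7 without mice 29 and 143 and 0 to 14 without 1 mouse, and DESeq2 called 1 member.

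Uncalled log2 fold changes that changed sign are given as the range without 1 mouse. At 7 days with fenretinide they were -0.10 to 0.16 for Clec4f, -0.72 to 0.20 for Timd4, -0.47 to 0.18 for Cd5l, -0.39 to 0.17 for C1qa, -0.34 to 0.24 for C1qb, -0.44 to 0.13 for C1qc and -0.16 to 0.23 for Csf1r, and limma-voom gave these genes 0.14, 0.0406, 0.17, 0.22, 0.26, 0.16 and 0.22. With fenretinide at 20 weeks Cd163 ranged from -0.00147 to 0.42. With time on HFD the ranges were -0.73 to 0.23 for Marco, at 0.0457 by limma-voom, and -0.33 to 0.0760 for Cd163. With time on FEN-HFD they were -0.38 to 0.0319 for Vsig4, -0.26 to 0.12 for Timd4, -0.30 to 0.30 for Cd5l, -0.28 to 0.25 for C1qa, -0.27 to 0.36 for C1qb, -0.27 to 0.28 for C1qc and -0.35 to 0.29 for Csf1r, and limma-voom gave the last 6 -0.27, -0.32, -0.32, -0.28, -0.30 and -0.28. There Timd4 was -0.0102 with no filter and -0.000708 with Rn45s and Lars2 left out.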

Other observations

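Among cell types outside the macrophage lists, Lrat of the stellate cell list, which codes for the enzyme that esterifies retinol for storage, rose with fenretinide at 20 weeks by 0.75 on the log2 scale (adjusted p = 0.0357 by edgeR), and also without mouse 29. Lrat also rose after 7 days, by 0.92 (adjusted p = 0.00334). Mmp9, a gelatinase gene on the neutrophil list, rose by 2.17 at 20 weeks (adjusted p = 0.0293) and by 1.92 at 7 days (adjusted p = 0.0411), and was the 1 of 4 and 1 of 5 neutrophil genes called. No gene of hepatocytes, sinusoidal endothelial cells, cholangiocytes, T and NK cells, B and plasma cells, dendritic cells or red blood cells was called with fenretinide by edgeR at either time with all mice, while Alb was called lower at 20 weeks without mouse 29. Their medians at 20 weeks were 0.10, -0.08, -0.31, 0.92, 1.16, 0.26 and 0.34, and without mouse 29 they were 0.18, -0.15, -0.24, 0.32, -0.07, -0.06 and 0.37 in the same order.

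With time on HFD, Cps1 (-1.25, adjusted p = 0.00838 by edgeR) and Apoa1 (-0.83, adjusted p = 0.0100) fell among 9 hepatocyte genes, Cd4 (-1.63, adjusted p = 0.0223) and Klrb1c (-1.60, adjusted p = 0.0357) among 5 genes of T and NK cells, and Xcr1 (-1.92, adjusted p = 0.0474) among 8 of dendritic cells. Cd4, Klrb1c and Xcr1 averaged only 0.943, 0.828 and 0.714 CPM in these mice. Without mouse 143 the call of Xcr1 was lost (adjusted p = 0.0651) and the other 4 held. In FEN-HFD livers, Il1b, the gene of interleukin 1 beta, rose with time by 1.37 (adjusted p = 0.0290) and Cps1 fell by 0.74 (adjusted p = 0.0346). Without mouse 29, both calls held, and Ccr2, Ly6c2 and Lpl of the recruited macrophage list, C1ra and C2 of the complement list and Clec4g of the endothelial list were also called lower, and Cd207, Hmox1 and Beta-s higher.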
